A study of Homo sapiens with 12 samples.

Results

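Keratins and desmosome proteins form the filament and adhesion system by which epithelial cells resist mechanical stress. The genes described here are those whose symbol is KRT with a number, the desmogleins, desmocollins and plakophilins, desmoplakin (DSP) and plakoglobin (JUP). Of the 19907 gene symbols measured, 38 were of this kind, 27 keratins and 11 desmosome genes. Fold changes are given for the 23 with a mean normalized count of at least 20 over the 12 libraries, which were 16 keratins (7 type I and 9 type II) and 7 desmosome genes. Of these, 21 had a mean of at least 20 in each of the 4 groups. The other 2, KRT17 and KRT78, reached that mean only through the groups in which they were high.

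RNA-seq was performed on MDA-MB-231 cells, an established human TNBC (triple-negative breast cancer) line of mesenchymal shape. Both lines compared are single clones from the same CRISPR/Cas9 experiment on NR3C1, the gene of the glucocorticoid receptor (GR). The wt-GR cells are a clone that was recovered untargeted, and the S134A-GR cells carry a knock-in on both alleles that replaces Ser134 of GR, a phosphorylation site, with alanine, together with a silent change that removes the guide's PAM. All cells were starved for 18 h in IMEM with 1% DCC, then given 10 ng/mL TGFβ1 or vehicle for 6 h, with 3 replicates per group and 12 libraries in all. Because each genotype is 1 clone, a difference between the lines cannot be told apart from a difference between clones.

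A keratin filament is built from pairs of a type I (acidic) and a type II (basic) keratin, and the pairs differ between epithelia. KRT8 and KRT18, joined by KRT7 and KRT19, serve simple epithelia, KRT5 and KRT14 the basal layer of stratified epithelia, KRT6, KRT16 and KRT17 stressed or wounded epidermis, and KRT81 to KRT86 hair. In the desmosome, desmogleins and desmocollins are the cadherins that bind the neighboring cell, plakoglobin and the plakophilins line the plaque, and desmoplakin ties the plaque to the keratin filaments. TGFβ1 is known as an inducer of epithelial to mesenchymal transition, a change in which epithelial cells loosen these junctions.

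In units of 1e6, the libraries held 56.4 to 129.8 recovered reads. Genes taken as markers of these cells (VIM, CD44, AXL, MSN and CAV1) were high in every group, with a summed normalized count of 770040 to 979909. The 3 leukocyte markers measured, of 4 listed, summed to 16.5 to 48.4. Other lists were not so low. Of 5 genes taken as low or absent in these cells (ESR1, PGR, ERBB2, CDH1 and EPCAM), 4 were measured. They summed to 8333 to 10937, with ERBB2 at a mean of 9059. The 3 endothelial markers summed to 928 to 2032, mostly PECAM1, with a mean of 1097 against 290 for VWF and 112 for CDH5. The 5 basal or myoepithelial markers summed to 3051 to 6632, mostly MYLK at a mean of 4124. ACTA2, OXTR and CNN1 had means of 72.6, 112 and 83.2. NR3C1 ranged from 10444 to 12729 normalized counts in vehicle-treated wt-GR cells and from 8516 to 8971 in vehicle-treated S134A-GR cells, which does not test the codon change. Of the library sets, wt-GR vehicle varied most in DST and MACF1, genes of very long transcripts. DST (24709 bases) was at 55947, 34446 and 26492 normalized counts in its replicates 1, 2 and 3, and MACF1 (24340 bases) at 60236, 39058 and 29980. Among the members, DSP (9697 bases) varied in the same order, and its values are given with and without replicate 1. DSC2, longer at 12331 bases, varied far less in these replicates, at 430, 392 and 387 normalized counts.

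Keratins held 0.20% to 0.270% of the reads and desmosome genes 0.0573% to 0.0661%. To compare one keratin with another, levels were divided by the length of the transcript, and KRT222, of neither type, was left out. Per kb, 4 keratins of simple epithelium or hair, KRT8, KRT18, KRT7 and KRT81, made up most of the keratin RNA in each group. By normalized count, not divided by length, KRT80 lay above KRT7 and KRT81 in vehicle-treated wt-GR cells, at 31720 against 30593 and 16688. KRT8 led everywhere, with 34.5% ± 0.377 (SD, n = 3) of the keratin level per kb in vehicle-treated wt-GR cells, 29.3% ± 0.246 under TGFβ1, and 37.3% ± 0.704 and 29.8% ± 0.769 in vehicle-treated S134A-GR cells and TGFβ1. KRT18, its type I partner, held 24.8% ± 0.714, 18.3% ± 0.625, 22.4% ± 0.605 and 16.8% ± 0.306 of that level in the same order. The share of KRT18 was thus smaller under TGFβ1 in both lines, but a share moves with the total. The KRT18 level per kb in wt-GR cells was 25440 ± 1629 under vehicle and 25769 ± 1366 under TGFβ1, while that of KRT8, whose share was also smaller, went from 35328 ± 964 to 41132 ± 1410.

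KRT7 and KRT81, both type II, held larger shares under TGFβ1. The share of KRT7 per kb was 18.4% ± 0.524 in vehicle-treated wt-GR cells and 27.5% ± 0.622 under TGFβ1, against 17.4% ± 0.232 and 27.1% ± 0.820 in the S134A-GR line. That of KRT81 was 8.45% ± 0.224 and 15% ± 0.232 in wt-GR cells and 12.9% ± 0.208 and 18.7% ± 0.528 in S134A-GR cells. KRT80, a type II keratin of differentiating epithelia, went the other way, from 8.0% ± 0.36 to 4.75% ± 0.0801 in the wt-GR line and from 6.62% ± 0.219 to 4.62% ± 0.161 in the S134A-GR line. Type II keratins therefore outweighed type I in each library. The ratio of the type II level to the type I level per kb was 2.40, 2.46 and 2.29 in the wt-GR vehicle libraries and 3.6, 3.47 and 3.33 in the wt-GR TGFβ1 libraries. In S134A-GR cells it was 2.82, 3.02 and 3.00 under vehicle and 4.31, 4.27 and 4.08 under TGFβ1. No pair of groups overlapped in this ratio, though an exact permutation test of 3 against 3 cannot go below p = 0.1 and none was used as evidence.

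**Figure D1:**
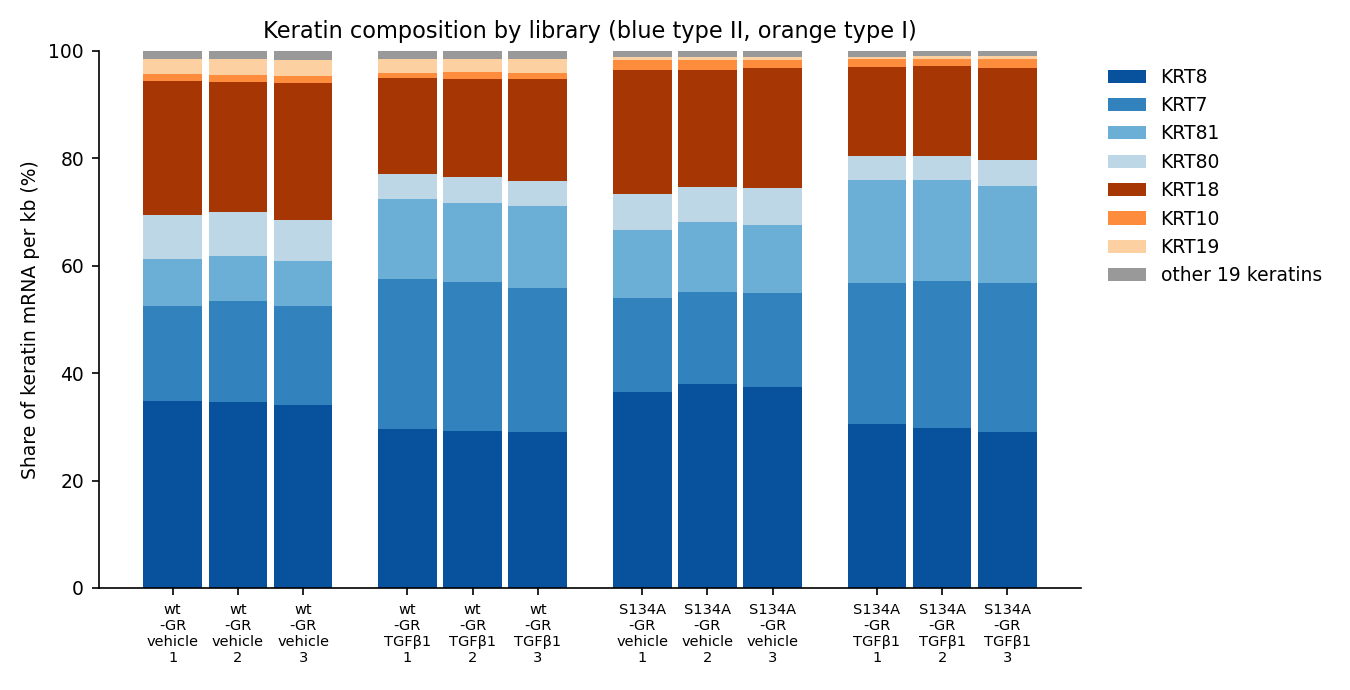
Share of the summed keratin level per kb (%, y axis) held by 7 keratins and by the other 19 together, as stacked bars for each of the 12 libraries (x axis), with type II keratins in blue and type I in orange. In both lines the bars under TGFβ1 show wider KRT7 and KRT81 bands and a narrower KRT18 band than under vehicle, with KRT18 at 24.8% against 18.3% in wt-GR cells.

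Some of these symbols share sequence, and the strand setting of the counting is not given in the sources used here. Of the 75-base windows of the KRT81 transcript, 36.6% also occur in another gene, and 33.0% of all its windows occur in KRT86. Of the KRT86 windows, 36.5% occur in another gene and 28.2% of all occur in KRT81. The split of reads between KRT81 (chromosome 12 of GRCh38 from 52285913 to 52291534, minus strand) and KRT86 (52249300 to 52309163, plus strand) is therefore uncertain. KRT18 and KRT8 overlap on opposite strands, with 26.5% of the KRT18 transcript bases in KRT8 exons. Of the KRT18 windows, 21.9% occur in KRT8, while 22.5% of the KRT8 windows occur elsewhere, mostly in KRT8 pseudogenes. How reads in the overlap were counted is not given, which limits the shares and ratios that rest on this pair. KRT7 shares 9.80% of its windows with its antisense gene KRT7-AS, and KRT16 shares 9.60% with KRT14 and KRT16 pseudogenes. Of the KRT81 windows, 1.67% occur in KRT85, and 1.31% of the KRT85 and 1.17% of the KRT83 windows occur in KRT81. KRT85 had 565 reads and KRT83 3241 over the 12 libraries, against 398231 for KRT81. Whether KRT81 reads were counted in either was not tested.

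**Figure D2:**
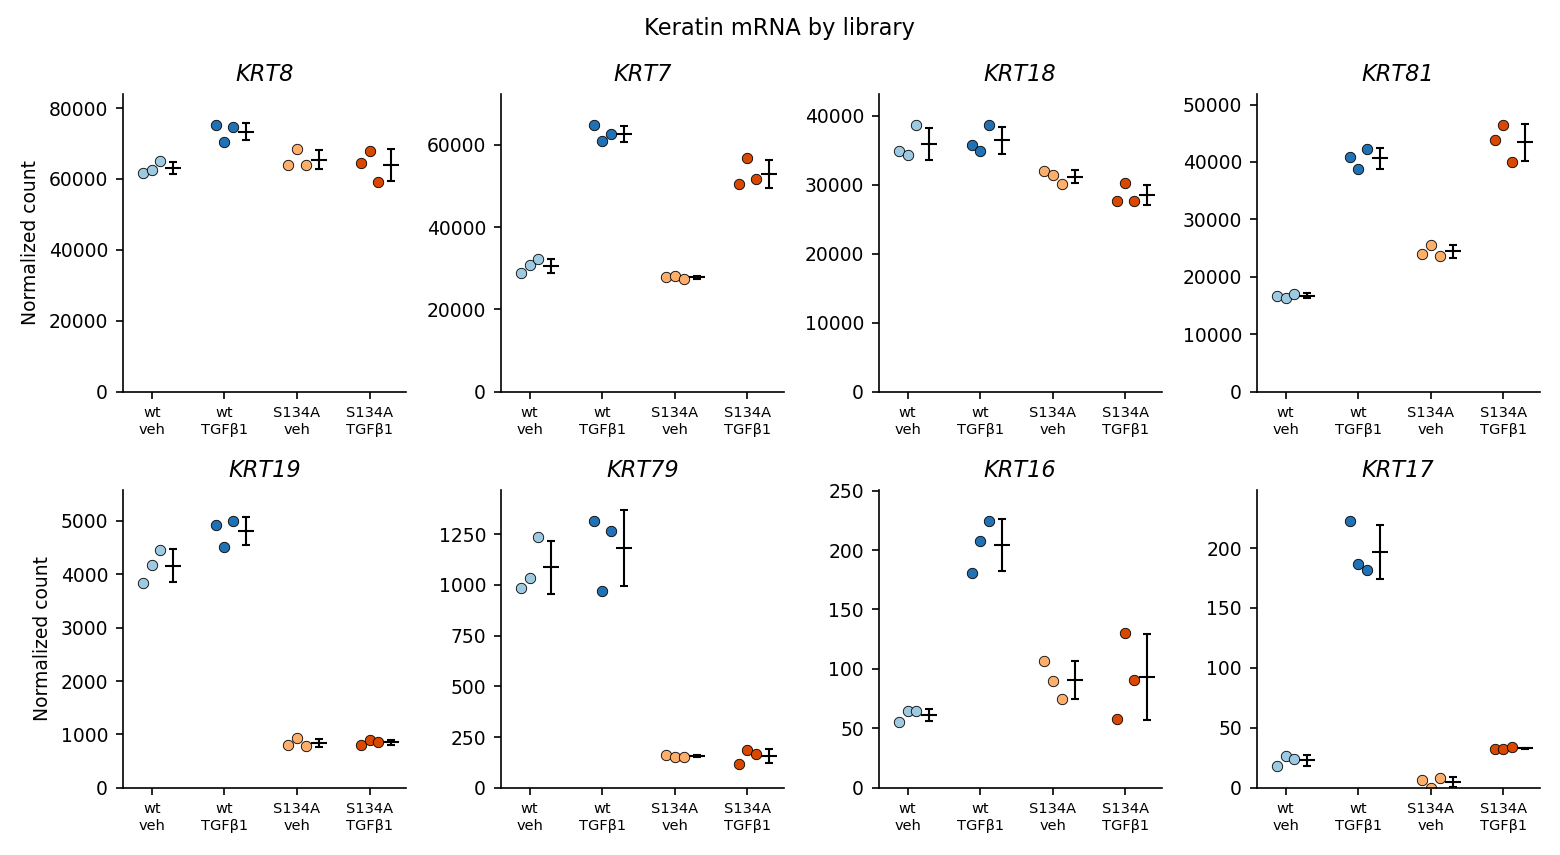
Normalized count (y axis, from 0) of 8 keratins in each library, with 3 points per group and, beside them, the mean and SD. KRT7 and KRT81 were higher under TGFβ1 than under vehicle in both lines, KRT19 and KRT79 were lower in S134A-GR cells under both treatments, and KRT16 stood apart only in wt-GR cells under TGFβ1.

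The comparison of S134A-GR with wt-GR cells asks which of these genes differ between the lines with GR able or unable to be phosphorylated at Ser134. Under vehicle, 16 of the 23 members differed, 12 lower and 4 higher in S134A-GR cells. That is 69.6% of the members, against 61.8% of all 14425 genes tested with a mean of at least 20 and 51.5% of all 18579 genes tested. Among the 14425 genes, 31.8% were lower and 30.0% higher. The median log2 fold change was −0.21 for the members and 0.00 for those genes. Without KRT17 and KRT78, which reached the mean of 20 only through their high groups, 14 of 21 differed, 10 lower and 4 higher, with a median of −0.15. Under TGFβ1, 16 of the 23 differed, 14 lower and 2 higher, where the background was 58.7% of the genes with a mean of at least 20 (30.7% lower and 28.0% higher) and 48.8% of all genes tested. Here the median was −0.27 for the members and 0.01 for the background, and without KRT17 and KRT78 it was −0.25, with 12 of 21 lower and 2 higher. Differences between the lines were thus widespread across the transcriptome. Called in the same direction under both treatments were 14 members, 12 lower and 2 higher. Apart from KRT17 and KRT78, whose values are a description with no test, the lower ones were KRT7, KRT18, KRT19, KRT79, KRT80, KRT86, JUP, PKP4, DSP and DSC2. The higher ones were KRT15 and PKP2. The share of all genes called in the same direction under both treatments was not computed, so the count of 14 has no background beside it.

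Among keratins of simple epithelia, KRT19, a type I keratin without the usual tail, separated the lines most sharply. Its normalized counts were 3842, 4176 and 4456 in vehicle-treated wt-GR cells and 4916, 4507 and 4989 under TGFβ1. In S134A-GR cells they were 799, 923 and 788 under vehicle and 803, 900 and 855 under TGFβ1. All 6 wt-GR libraries lay above all 6 S134A-GR libraries, and KRT19 was 4.97-fold lower in vehicle-treated S134A-GR cells (log2 fold change −2.31, SE 0.0736, adjusted p = 3.15e-11) and 5.64-fold lower under TGFβ1 (adjusted p = 1.75e-11).

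The major simple keratins differed far less. KRT18 was at 34869, 34381 and 38590 normalized counts in vehicle-treated wt-GR cells and 31930, 31388 and 30115 in S134A-GR cells, and under TGFβ1 at 35743, 34906 and 38588 against 27630, 30219 and 27676. The S134A-GR libraries were the lower ones under either treatment, by −0.21 (SE 0.0521, adjusted p = 0.00426) and −0.35 (adjusted p = 6.12e-05) on the log2 scale. KRT8 did not pass the test under vehicle (0.05, 95% interval −0.05 to 0.16, adjusted p = 0.389). Under TGFβ1 it was lower in S134A-GR cells by −0.20 (SE 0.0490, adjusted p = 0.00349). KRT7 was lower by −0.14 under vehicle (SE 0.0480, adjusted p = 0.0282) and by −0.25 under TGFβ1 (adjusted p = 0.000658). The vehicle call of KRT7 was lost when wt-GR vehicle replicate 2 or 3 or S134A-GR vehicle replicate 1 or 3 was left out (−0.13, −0.10, −0.14 and −0.13, adjusted p up to 0.104).

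Keratins of stratified epithelia held the largest difference between the lines. KRT79, a type II keratin found in skin glands and hair follicle ducts, was at 987, 1036 and 1235 normalized counts in vehicle-treated wt-GR cells, and at 1313, 970 and 1265 under TGFβ1. In S134A-GR cells it was at 161, 152 and 153 under vehicle and at 118, 186 and 167 under TGFβ1. The lines were far apart under either treatment, with KRT79 6.99-fold lower in vehicle-treated S134A-GR cells (log2 fold change −2.79, SE 0.157, adjusted p = 5.1e-09) and 7.52-fold lower under TGFβ1 (adjusted p = 3.58e-09). Its neighbor on chromosome 12, KRT78, was low in all libraries, at 39.1, 72.9 and 56.9 normalized counts against 3.77, 12.2 and 17.8 under vehicle and at 30.0, 60.0 and 42.8 against 11.4, 10.1 and 15.7 under TGFβ1. The log2 fold changes were −2.39 (SE 0.452) and −1.72. They are given as a description with no test, since KRT78 reached a mean of 20 only through the wt-GR cells. KRT80 was lower by −0.33 (SE 0.0306, adjusted p = 6.46e-07) and −0.27 (adjusted p = 6.02e-06). KRT10, a keratin of differentiated epidermis, was higher under vehicle (0.28, SE 0.0678, adjusted p = 0.00285), and its value of 0.09 under TGFβ1 did not pass (adjusted p = 0.328).

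The stress keratins were at low levels. KRT17 was at 17.9, 26.4 and 24.2 normalized counts in vehicle-treated wt-GR cells and at 6.60, 0 and 8.02 in S134A-GR cells, which are 7, 0 and 9 reads. Under TGFβ1 it was at 222, 187 and 181 against 32.3, 32.4 and 33.6. The lines did not overlap, and the log2 fold changes were −2.53 (SE 0.598) and −2.54, given as a description with no test, since KRT17 reached a mean of 20 only through the other 3 groups. Without S134A-GR vehicle replicate 2, the library with no KRT17 read, the vehicle value was −1.51, and with a pseudocount of 16 it was −0.91. KRT16 gave 0.54 under vehicle, which did not pass (adjusted p = 0.0786), and was lower in S134A-GR cells under TGFβ1 (−1.19, SE 0.244, adjusted p = 0.000965). The basal keratin KRT15 was higher in S134A-GR cells, by 0.49 (SE 0.0959, adjusted p = 0.000608) and 0.35 (adjusted p = 0.00738).

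The hair keratins did not share a direction. KRT81 was at 16713, 16250 and 17100 normalized counts in vehicle-treated wt-GR cells and at 24031, 25611 and 23615 in S134A-GR cells. It was thus 1.46-fold higher in the latter (log2 fold change 0.55, SE 0.0515, adjusted p = 7.38e-07). Under TGFβ1 the difference was 0.09 and did not pass (95% interval −0.02 to 0.20, adjusted p = 0.154). KRT86 was lower by −0.58 (SE 0.0781, adjusted p = 2.57e-05) and −0.75 (adjusted p = 2.29e-06), with the shared sequence described above as a limit on both genes. Differences of KRT83, KRT85 and KRT34 did not pass under either treatment, with values of −0.24, 0.57 and −0.56 under vehicle and 0.32, −0.11 and −0.51 under TGFβ1.

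In the desmosome, the cadherin DSC2 was the member that differed most between the lines. Its normalized counts were 430, 392 and 387 in vehicle-treated wt-GR cells and 397, 351 and 333 under TGFβ1, against 126, 121 and 126 and 130, 85 and 99.4 in S134A-GR cells. No S134A-GR library came near a wt-GR one, and DSC2 was 3.25-fold lower under vehicle (log2 fold change −1.69, SE 0.144, adjusted p = 2.76e-07) and 3.43-fold lower under TGFβ1 (adjusted p = 1.74e-07). DSG2, the other desmosomal cadherin present, was the most abundant desmosome gene by normalized count, at 24421, 25004 and 23137 under vehicle in wt-GR cells against 24705, 26039 and 25460 in S134A-GR cells. These groups overlapped, and the difference was 0.07 under vehicle (95% interval −0.03 to 0.17, adjusted p = 0.208) and 0.11 under TGFβ1 (0.01 to 0.21, adjusted p = 0.0542). Per kb, DSG2 stood at 4246 ± 168 (SD, n = 3) and DSC2 at 32.7 ± 1.90 in vehicle-treated wt-GR cells, so the pair of cadherins was carried almost wholly by the desmoglein. Per kb, the plaque gene JUP reached the level of DSG2 only in wt-GR cells under TGFβ1, at 4444 ± 70 against 4408 ± 109. In vehicle-treated wt-GR cells JUP was at 3911 against 4246 for DSG2. In S134A-GR cells it was at 3048 against 4459 under vehicle and at 2966 against 4768 under TGFβ1.

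Among the plaque genes, the RNA of JUP and DSP was lower in S134A-GR cells. JUP, which binds the tails of the cadherins, was at 13943, 13483 and 13698 normalized counts in vehicle-treated wt-GR cells and 10578, 11001 and 10470 in S134A-GR cells. Under TGFβ1 it was at 15827, 15336 and 15570 against 10887, 10861 and 9439. The lines did not overlap, with log2 fold changes of −0.36 (SE 0.0479, adjusted p = 2.14e-05) and −0.59 (adjusted p = 2.04e-07). DSP was at 8295, 6226 and 5231 in vehicle-treated wt-GR cells against 3471, 3463 and 3778 in S134A-GR cells, and at 5115, 5099 and 4885 against 3849, 3397 and 3387 under TGFβ1. It was lower in S134A-GR cells by −0.86 (SE 0.117, adjusted p = 2.61e-05) under vehicle, −0.68 without wt-GR vehicle replicate 1, and by −0.51 (adjusted p = 0.00229) under TGFβ1.

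The plakophilins, armadillo proteins of the plaque, were divided. PKP4 was lower in S134A-GR cells by −0.15 (SE 0.0422, adjusted p = 0.00707) and −0.16 (adjusted p = 0.00498). PKP2 was at 2754, 2809 and 2452 normalized counts against 3060, 2964 and 2992 under vehicle, and at 1972, 2010 and 1962 against 2410, 2417 and 2350 under TGFβ1. It was the desmosome gene that was higher in S134A-GR cells, by 0.17 (SE 0.0498, adjusted p = 0.00979), or 0.11 without wt-GR vehicle replicate 3, and by 0.27 (adjusted p = 0.000401). PKP3 did not pass under either treatment, at 0.10 (adjusted p = 0.196) and −0.10 (adjusted p = 0.167).

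**Figure D3:**
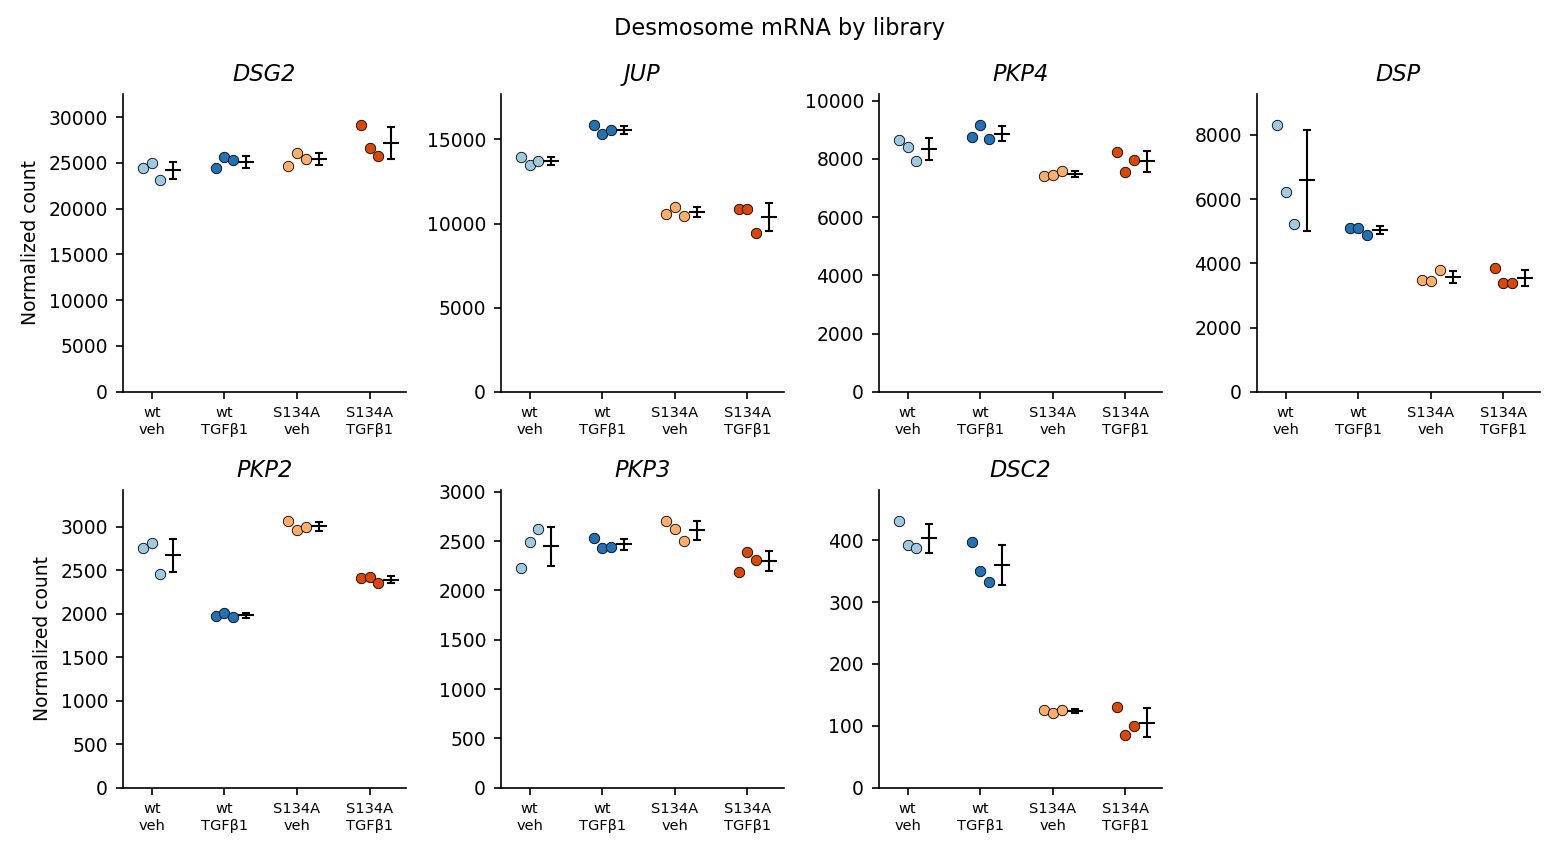
Normalized count (y axis, from 0) of the 7 desmosome genes in each library, with 3 points per group and, beside them, the mean and SD. DSC2, JUP and DSP lay lower in S134A-GR than in wt-GR cells under both treatments, the DSP values of wt-GR cells under vehicle ranged from 5231 to 8295, and PKP2 was lower under TGFβ1 in both lines.

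KRT79 and DSC2 were far lower in S134A-GR cells, under either treatment. Promoter windows of 250 bases before to 50 after the start site (RefSeq, GRCh38.p14) were on hand for both, and they are shown because these are the most strongly lower members for which a window was given. Capitals mark the SMAD box CAGAC on either strand, a motif bound by the transcription factors that TGFβ1 activates.
KRT79, chr12:52834262-52834561, minus strand: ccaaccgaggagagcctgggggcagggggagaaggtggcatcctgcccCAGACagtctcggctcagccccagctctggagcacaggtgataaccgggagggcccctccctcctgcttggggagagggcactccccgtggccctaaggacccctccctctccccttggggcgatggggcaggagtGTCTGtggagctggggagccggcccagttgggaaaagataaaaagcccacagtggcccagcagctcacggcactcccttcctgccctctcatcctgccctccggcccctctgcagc
DSC2, chr18:31102372-31102671, minus strand: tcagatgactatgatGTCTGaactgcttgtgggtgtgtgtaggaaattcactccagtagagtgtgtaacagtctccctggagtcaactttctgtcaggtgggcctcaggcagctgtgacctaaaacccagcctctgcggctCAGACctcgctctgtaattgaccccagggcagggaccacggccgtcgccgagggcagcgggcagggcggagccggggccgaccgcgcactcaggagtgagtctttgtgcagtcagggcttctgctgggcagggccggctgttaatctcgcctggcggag
Each window held 2 matches of CAGAC, a string that 45.3% of the 35116 promoter windows of this length contained. Neither held the AP-1 motif TGANTCA (7.71% of all windows), the GR half-site AGAACA (14.8%) or the TATA box TATAAA (11.5%) on either strand, and both held the E-box CAGGTG (20.6%). Neither gene passed the test for a response to TGFβ1 in either line, so the matches are given as a description of the sequence alone. Windows were given for 10 of the 23 members.

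The comparison of TGFβ1 with vehicle asks how these genes respond within 6 h. In wt-GR cells 11 of the 23 members changed, 8 rising and 3 falling. That is 47.8% of the members, against 26.1% of the 14425 genes with a mean of at least 20 (14.0% rose and 12.1% fell) and 21.0% of all genes tested. In S134A-GR cells 7 of the 23 changed, 4 rising and 3 falling, or 30.4%, where the background was 23.5% (12.7% rose and 10.8% fell) and 18.7% of all genes tested. The median log2 fold change of the members was 0.12 in wt-GR and −0.01 in S134A-GR cells, against 0.00 for the background in each. Without KRT17 and KRT78 the counts were 10 of 21 in wt-GR cells, 7 rising and 3 falling, and 6 of 21 in the S134A-GR line, 3 in each direction. Across all 5 comparisons, 9 members passed the threshold and moved by at least 1 on the log2 scale in any of them, against 10.6% of the 14425 genes. Among the 9 are KRT17 and KRT78, whose values are a description with no test. The others were KRT7, KRT16, KRT19, KRT79, KRT81, KRT85 and DSC2.

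Of the 5 most abundant keratins, KRT7 and KRT81, both type II, rose most in each line. KRT7 was at 28777, 30847 and 32155 normalized counts under vehicle and 64694, 60887 and 62513 under TGFβ1 in wt-GR cells, and at 27800, 28211 and 27396 against 50359, 56703 and 51617 in S134A-GR cells. Treated libraries lay far above vehicle libraries in both lines, 2.05-fold in wt-GR (log2 fold change 1.04, SE 0.0480, adjusted p = 1.87e-09) and 1.90-fold in S134A-GR cells (0.93, adjusted p = 7.54e-09). KRT81 under TGFβ1 was at 40914, 38706 and 42301 in wt-GR cells and at 43839, 46356 and 40053 in S134A-GR cells. Over the vehicle values given above it rose 2.44-fold (1.28, SE 0.0515, adjusted p = 4.17e-10) and 1.78-fold (0.83, adjusted p = 4.83e-08). KRT86, with which it shares sequence, rose by 0.72 (SE 0.0781, adjusted p = 1.21e-05) and 0.54 (adjusted p = 0.000197).

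KRT8, the most abundant keratin, rose in wt-GR cells, from 61689, 62421 and 64966 normalized counts under vehicle to 75095, 70491 and 74550 under TGFβ1 (log2 fold change 0.22, SE 0.0490, adjusted p = 0.0052). In S134A-GR cells it was at 63810, 68594 and 63895 under vehicle and 64512, 68005 and 59198 under TGFβ1, groups that overlapped (−0.04, 95% interval −0.14 to 0.07, adjusted p = 0.697). Its partner KRT18 did not pass in either line, at 0.02 (adjusted p = 0.849) and −0.13 (adjusted p = 0.109). KRT19 and KRT10 came near the threshold in wt-GR cells, at 0.21 (adjusted p = 0.0588) and 0.20 (adjusted p = 0.0562), and gave 0.03 and −0.00 in S134A-GR cells. Of the abundant keratins, KRT80 alone fell in both lines, by 0.30 (SE 0.0306, adjusted p = 6.82e-06) and 0.23 (adjusted p = 8.71e-05) on the log2 scale.

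Of the stress keratins, KRT17, given by library above, was 8.61-fold higher under TGFβ1 in wt-GR cells by the ratio of means (log2 fold change 3.06, SE 0.598). In S134A-GR cells the ratio was 6.73 (log2 fold change 3.05), and the fitted value was 2.03 without vehicle replicate 2 and 1.25 with a pseudocount of 16. These too are a description with no test, for the reason given above. KRT16 was at 55.4, 64.5 and 64.2 normalized counts under vehicle and 181, 207 and 224 under TGFβ1 in wt-GR cells, and at 107, 90.2 and 74.8 against 58.0, 131 and 90.8 in S134A-GR cells. The treated wt-GR libraries lay above all others, with a log2 fold change of 1.72 (SE 0.244, adjusted p = 0.000149), while in S134A-GR cells the groups overlapped (−0.02, 95% interval −0.54 to 0.50, adjusted p = 0.978).

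Among the remaining keratins, KRT85, a hair keratin, was at 22.8, 29.6 and 22.1 normalized counts under vehicle and 41.1, 52.7 and 89.6 under TGFβ1 in wt-GR cells, and rose there (log2 fold change 1.20, SE 0.273, adjusted p = 0.00577). In S134A-GR cells it went from 32.0, 36.5 and 43.7 to 52.3, 52.6 and 56.5, which did not pass (0.52, adjusted p = 0.22). The sequence that KRT85 shares with the far more abundant KRT81 limits these values. Neither KRT15, KRT79, KRT83, KRT78 nor KRT34 passed in either line. KRT83 had the widest spread of these, at 131, 297 and 459 normalized counts in wt-GR cells under TGFβ1.

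Of the 7 desmosome genes, 1 rose and 2 fell in wt-GR cells, or 42.9% against the background of 26.1%. In S134A-GR cells 2 fell, or 28.6% against 23.5%, and no call reached 1 on the log2 scale. PKP2 fell in both lines, by 0.43 (SE 0.0498, adjusted p = 2.22e-05) and 0.33 (adjusted p = 0.000298) on the log2 scale. JUP rose in wt-GR cells by 0.18 (SE 0.0479, adjusted p = 0.0133), a call lost without wt-GR vehicle replicate 2 (0.17, adjusted p = 0.0565) or wt-GR TGFβ1 replicate 1 (0.17, adjusted p = 0.0539), and gave −0.04 in S134A-GR cells (adjusted p = 0.623). DSP fell in wt-GR cells by 0.36 (SE 0.117, adjusted p = 0.0408). Leaving out any of 9 of the 12 libraries ended that call, and without wt-GR vehicle replicate 1 the value was −0.18 (adjusted p = 0.115). Of these fits the call held only without wt-GR vehicle replicate 3 or S134A-GR TGFβ1 replicate 1 or 3, and over the 21 alternatives the adjusted p ranged from 0.00119 to 0.157.

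PKP3 was at 2227, 2493 and 2619 normalized counts under vehicle and 2535, 2426 and 2439 under TGFβ1 in wt-GR cells, which overlapped. In S134A-GR cells it was at 2699, 2626 and 2503 under vehicle and 2187, 2390 and 2312 under TGFβ1, and it fell by 0.18 (SE 0.0590, adjusted p = 0.0426). That call was lost without any of 9 libraries and held without wt-GR vehicle replicate 1 or 3 or S134A-GR TGFβ1 replicate 2, with values from −0.21 to −0.15 and adjusted p up to 0.153. DSG2, PKP4 and DSC2 did not pass in either line, at 0.05, 0.09 and −0.17 in wt-GR cells and 0.10, 0.08 and −0.26 in S134A-GR cells. In the treated S134A-GR libraries DSG2 was at 29094, 26639 and 25764, and in the treated wt-GR libraries at 24412, 25608 and 25316.

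**Figure D4:**
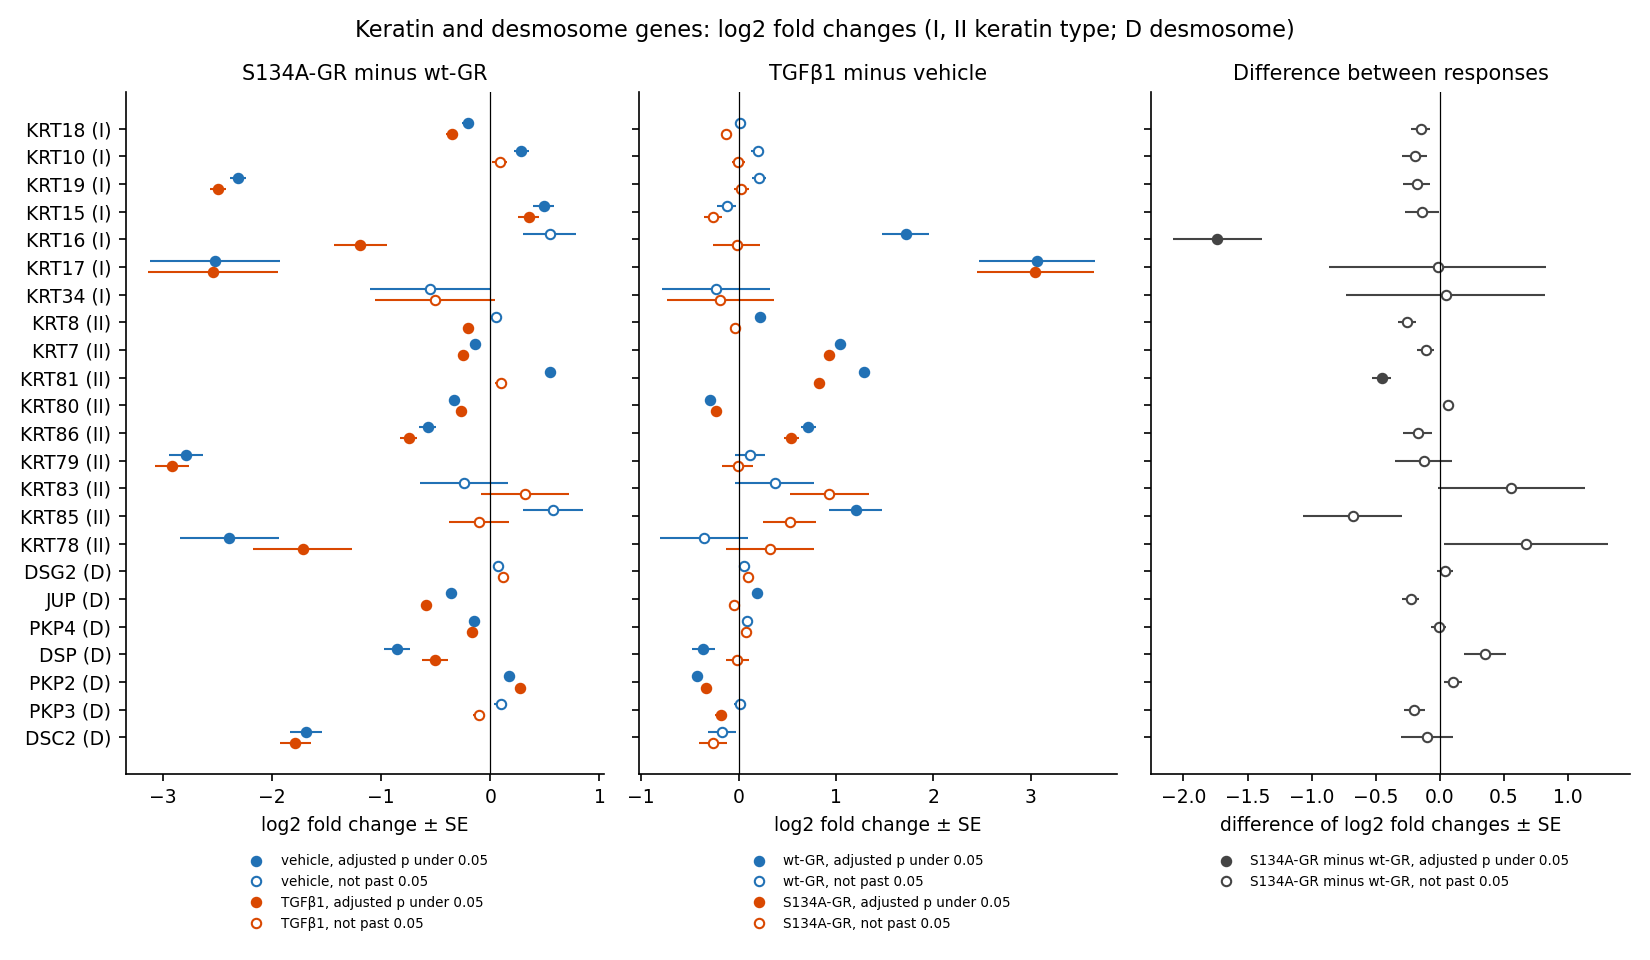
Log2 fold change with its SE (x axes) of the 23 members with a mean of at least 20 (y axis, with the keratin type I or II, or D for desmosome), for S134A-GR against wt-GR cells, for TGFβ1 against vehicle, and for the difference between the 2 responses. Filled points passed an adjusted p of 0.05, and in the last panel only KRT16 (−1.74) and KRT81 (−0.45) did so. KRT17 and KRT78 reached the mean of 20 only through the groups in which they were high, so their points, filled or not, are a description with no test.

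The last comparison asks whether the response to TGFβ1 differed between the lines. Of the 23 members, 2 passed, or 8.70%, against 0.527% of the 14425 genes with a mean of at least 20 and 0.414% of all genes tested. Both differences were negative, where 0.319% of the 14425 genes passed with a negative and 0.208% with a positive difference. KRT81 rose less in S134A-GR cells by 0.45 on the log2 scale (95% interval −0.61 to −0.30, SE 0.0729, adjusted p = 0.0155), from vehicle levels that were already higher. The call was lost without wt-GR vehicle replicate 2 (−0.44, adjusted p = 0.0644), wt-GR TGFβ1 replicate 1 (−0.45, adjusted p = 0.0604) or wt-GR TGFβ1 replicate 3 (−0.43, adjusted p = 0.0562), and over the 20 alternatives its adjusted p ranged from 5.43e-06 to 0.0644.

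KRT16 rose in wt-GR cells and not by this test in S134A-GR cells, and the difference was −1.74 (95% interval −2.48 to −0.99, SE 0.345, adjusted p = 0.0473). Leaving out any of 10 of the 12 libraries ended the call (adjusted p from 0.0562 to 0.158), and it held only without wt-GR vehicle replicate 3 or S134A-GR TGFβ1 replicate 2. The value itself stayed between −2.02 and −1.44 in all 20 alternatives. KRT8 gave −0.25 (SE 0.0693) and JUP −0.23 (SE 0.0677), which did not pass with limma (adjusted p = 0.217 and 0.282). For KRT17 the difference was −0.02, and −1.21 with a pseudocount of 16. Both are a description with no test, since KRT17 reached a mean of 20 only through its high groups. At an unadjusted limma p under 0.05 there were 5 members, KRT81, KRT16, KRT8, JUP and PKP3, and of these only KRT81 and KRT16 had a call. The share of all genes under that unadjusted p was not computed, so this count has no background beside it.

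Proteins that work with keratins and desmosomes were covered by a list of 14 cytolinkers and partners, 13 of them with a mean of at least 20. Of these, the S134A-GR cells had 3 higher and 6 lower under each treatment, where 61.8% of genes with such a mean differed under vehicle and 58.7% under TGFβ1. ADAM17, a sheddase, was the furthest apart under vehicle (−1.05, SE 0.0474), followed by plectin (PLEC), the cytolinker that joins keratins to other filaments (0.87, SE 0.0868), which was at 195274 ± 33471 (SD, n = 3) normalized counts in wt-GR and 355132 ± 19943 in S134A-GR cells. With TGFβ1, 2 of the 13 rose in wt-GR cells, and 1 rose and 1 fell in S134A-GR cells, against 26.1% and 23.5% of genes. The gene that fell had a mean of at least 20 under vehicle alone.

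Other intermediate filament genes numbered 9 with a mean of at least 20. Between the lines, 4 were lower under vehicle, and 1 was higher and 5 lower under TGFβ1, beside the same 61.8% and 58.7% of genes. Vimentin (VIM), the mesenchymal counterpart of the keratins, did not pass between the lines (0.02 under vehicle) and rose with TGFβ1 by 0.25 in wt-GR and 0.28 in S134A-GR cells (SE 0.0363). It was by far the most abundant of them, at 422927 ± 3379 normalized counts in vehicle-treated wt-GR cells. In wt-GR cells 2 of the 9 rose and 2 fell, and in S134A-GR cells 1 rose and 2 fell (background 26.1% and 23.5%).

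Cornified envelope genes, which serve the outermost epidermis with the late keratins, were few, 8 of 22 with a mean of at least 20. Under each treatment S134A-GR cells had 4 of the 8 higher and 2 lower, against 61.8% of genes called under vehicle and 58.7% under TGFβ1. SCEL and TCHH are among these and had a mean of 20 only through the line in which they were high. Without them 3 of 6 were higher and 1 lower under each treatment. A single gene fell with TGFβ1 in each line and none rose, TGM5 in both (−1.55 in wt-GR cells, SE 0.219), where 26.1% and 23.5% of genes were called.

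Regulators of epithelial genes with a mean of at least 20 numbered 14, and the S134A-GR cells had 3 higher and 6 lower under vehicle and 4 higher and 6 lower under TGFβ1 (background 61.8% and 58.7%). With TGFβ1, 3 rose and 2 fell in wt-GR cells, and 3 rose and 5 fell in S134A-GR cells (background 26.1% and 23.5%). ELF3, an epithelial activator, is counted as lower and as falling each time, but it reached a mean of 20 only through vehicle-treated wt-GR cells, and without it 13 remain. SNAI1, a repressor of epithelial genes, rose by 1.84 in wt-GR and by 1.03 in S134A-GR cells (SE 0.0781), and the difference of −0.81 (SE 0.11) was the one on this list that passed. Of 8 luminal epithelial markers, 5 had a mean of at least 20. Under vehicle 3 of them were higher in S134A-GR cells, MUC1 (1.23, SE 0.0736), GATA3 (0.43) and FOXA1 (0.34), and EPCAM was lower (−1.44, SE 0.104). ESR1 was under 3 reads in all wt-GR vehicle libraries. The part of such markers in the results above was not tested.

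The remaining 15 members had a mean under 20, and no fold change is given for them. Of these, 12 had at least 10 reads over the 12 libraries and KRT9, KRT36 and KRT6A had 7, 5 and 4 reads. The basal pair KRT5 and KRT14, which mark basal breast epithelium, was close to the floor of 3 reads per library, at most 12.2 and 22.2 normalized counts. KRT5 had 0 reads in the 3 S134A-GR vehicle libraries and 3, 4 and 9 reads in the wt-GR vehicle libraries. KRT14 had 20, 27 and 8 reads in wt-GR cells under TGFβ1 and 2 in each under vehicle. PKP1, a plakophilin of stratified epithelia, had 0, 4 and 6 reads in vehicle-treated wt-GR cells and 20, 47 and 28 under TGFβ1, against 11, 16 and 16 and 18, 12 and 21 in S134A-GR cells. KRT4 had 18, 27 and 12 reads and then 18, 35 and 28 in wt-GR cells, and 2, 3 and 8 and then 2, 4 and 0 in S134A-GR cells. The desmosomal cadherins of stratified epithelia, DSG4, DSC1 and DSC3, had 22, 21 and 10 reads in all, so that at this depth the desmosomal cadherin RNA was that of DSG2 with little DSC2.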

How the data were processed

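Total RNA of MDA-MB-231 cells was made into 12 TruSeq libraries and sequenced in 75-base paired-end mode. Per the study's methods and the submitters' processing notes, the authors checked reads with FastQC 0.11.7, used Trimmomatic for trimming, HISAT2 for alignment to hg38 and featureCounts (Subread) for counting, and scaled each library by its DESeq2 1.22.2 size factor. The deposited signal values are these normalized counts, 1 column per library. The annotation and the strand setting are not given in the sources used here.

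A unit step was found in each library, of which 100% of its values were multiples (tolerance 0.1 read). This recovered the reads, 56.4 to 129.8 per library in units of 1e6, with size factors of 0.614 to 1.40. These totals exceed the average reads per sample that the labels state, and no source used here says whether a pair was counted as 2 reads, so a recovered read may be 1 mate and not a fragment, which bears on every read count, floor and filter given. Genes with at least 10 reads over the 12 libraries, 18579, were fitted as log2(normalized count + 1) with limma 3.58.1 in R 4.3.3, with 4 group means, a variance trend and Benjamini-Hochberg adjustment over all genes tested. A call is an adjusted p under 0.05. Log2 fold changes, SEs and p-values come from this fit. Values given as x-fold higher or lower are ratios of the group means of normalized counts, unless said to be by the fit. The added 1 shrinks changes of low genes, but a library with few or no reads can widen them. For KRT17 under vehicle, S134A-GR cells were 5.76-fold lower by the fit and 4.69-fold lower by the ratio of means. The plan named counts, and limma was used because the values are normalized. The floor of 3 reads was at most 4.89 normalized counts and covers counting error only. Levels per kb used GENCODE v44 canonical transcripts on GRCh38, with which all 38 symbols matched.

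Members and lists were chosen with earlier results of these data known. All members with a mean of at least 20 are named, and values in every library are given for those past the threshold that moved by at least 1 on the log2 scale and for 10 set genes. Alternatives were pseudocounts of 0.5 and 16, no filter beyond 1 read, filterByExpr, TMM scaling, edgeR 4.0.16 quasi-likelihood and DESeq2 1.42.0 Wald tests on recovered reads, a replicate block, only the groups compared, means of 5 or 50 for members, and each library left out. The chi-square of replicates of a group, per degree of freedom, was 8.69 to 43.7, so they differed by more than counting error. No source says that they came from separate cultures, so p-values measure the spread between these libraries. The fit was checked on simulated data.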

Additional observations from a re-analysis of the deposited data

Results flagged for a closer look

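The TGFβ1 response of 2 members differed between the lines by the test of the difference itself (S134A-GR minus wt-GR). For KRT81 the difference was −0.455 on the log2 scale (SE 0.0729, limma adjusted p = 0.0155). For KRT16 it was −1.736 (SE 0.345, adjusted p = 0.0473). Groups of 3 libraries are too small for a check of single outlying samples.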

How the results depend on the processing

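Of the 2391 combinations of a member, a comparison and an alternative, 2324 kept their side of the threshold, 44 lost a call and 23 gained one. None reversed a called direction, and 54 changed sign without a call. The number of members called stayed at 15 to 17 (S134A-GR against wt-GR, vehicle), 16 to 18 (the same under TGFβ1), 9 to 12 (response of wt-GR) and 6 to 7 (response of S134A-GR) when each library was left out. For the difference between responses it was 0 to 2, at 0 without wt-GR vehicle replicate 2, wt-GR TGFβ1 replicate 1 or wt-GR TGFβ1 replicate 3. It was 1 in place of 2 with a pseudocount of 0.5 and with no filter beyond 1 read, where KRT16 was lost (adjusted p = 0.0512 and 0.0621). With DESeq2 the count was 3, KRT8 being added. With a pseudocount of 16 it was also 3, the addition being KRT17, whose values are a description with no test.

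With the replicate block 1 member differed in response in place of 2 (KRT16 lost, adjusted p = 0.0678), the S134A-GR response had 6 calls in place of 7 (PKP3 lost, adjusted p = 0.0612), and the other counts did not move. Libraries with the same number deviated together no more than others (mean r −0.00324 against 0.00173 over 12506 genes), so the numbers were not taken as pairs.

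Calls gained were few. The count tests called KRT10 and KRT19 in the wt-GR response (edgeR adjusted p = 0.0484 and 0.0465), and DESeq2 called KRT15 in the S134A-GR response (0.0352) and KRT8 in the difference (0.0493). With filterByExpr, DSG2 between the lines under TGFβ1 gained a call (limma adjusted p = 0.0484). With only the groups compared, KRT16 between the lines under vehicle (limma adjusted p = 0.0466) and KRT15 in the S134A-GR response (0.0251) gained one. Between the lines, KRT16 under vehicle gained a call without S134A-GR TGFβ1 replicate 1 or 2 (adjusted p = 0.0254 and 0.0374), KRT81 under TGFβ1 without S134A-GR TGFβ1 replicate 3 (0.15, adjusted p = 0.0211) and DSG2 under TGFβ1 without wt-GR vehicle replicate 3 or S134A-GR TGFβ1 replicate 3 (adjusted p = 0.0378 and 0.0195). In the responses, KRT10 of wt-GR cells gained a call without wt-GR TGFβ1 replicate 1 or S134A-GR vehicle replicate 3 (adjusted p = 0.0273 and 0.0303), and KRT19 without wt-GR vehicle replicate 3, wt-GR TGFβ1 replicate 2, S134A-GR vehicle replicate 2 or S134A-GR TGFβ1 replicate 1 (0.0266, 0.0498, 0.0367 and 0.0499). In S134A-GR cells KRT15 gained a call without wt-GR TGFβ1 replicate 2 (0.0321) and DSC2 without S134A-GR TGFβ1 replicate 1 (−0.43, 0.0356). The causes of these moves were not tested.

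Without division by transcript length, type I keratins held 23.28%, 18.16%, 20.3% and 15.62% of the keratin level (wt-GR vehicle and TGFβ1, S134A-GR vehicle and TGFβ1) in place of 29.55%, 22.4%, 25.35% and 19.16%, as the construction implies, and the order of the groups stayed. Of the shares of KRT8, KRT7, KRT18, KRT81, KRT80 and KRT19 in the 4 groups, 22 moved by at least their SD and 2 did not. Depth limited the 15 members under a mean of 20, and KRT17, KRT78, KRT85 and KRT34 have a mean under 100 normalized counts.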
